A study of Mus musculus with 36 samples.

Results

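Serpins are protease inhibitors that present a bait loop, are cut by the protease and then trap it in an inactive complex. Extracellular members restrain complement, clotting and fibrinolysis, and the intracellular clade B members protect cells from proteases that leak from their own granules or lysosomes or arrive from cytotoxic lymphocytes. Myeloid cells hold much protease and make several of these inhibitors, some of them in response to interferon or bacterial products. The 7 serpin genes described here are Serpina3f and Serpina3g of the mouse antichymotrypsin cluster, the clade B genes Serpinb1a, Serpinb2, Serpinb6b and Serpinb9, and Serping1. They are 7 of the 17607 genes tested on the arrays. They were chosen by measured values, because Serpina3f and Serpina3g were among the largest rises with IFN-γ in these same arrays, so every IFN-γ difference below is a description without a test.

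RNA of 12 groups of mouse myeloid cells was hybridized to single-colour 60-base oligonucleotide arrays, with 3 arrays per group numbered as series 1, 2 and 3. The starting cells were FACS-sorted Ly6C+ Ly6G- CD11b+ monocytes of bone marrow, and 3 of the 36 arrays held these cells uncultured. M-CSF macrophages spent 7 days in 10% FCS with 20 ng/ml M-CSF, and from day 6, for 24 h, received nothing (M0), 25 ng/ml IFN-γ (MΦ_IFN-γ, here called IFN-γ macrophages), IFN-γ with LPS (M1), 20 ng/ml IL-4 (M2a), 1e-07 M dexamethasone (M2c), or IFN-γ in dishes coated with 1 mg/ml human immunoglobulin (M2b). Regulatory macrophages (Mreg) differed in having 10% human AB serum beside 10% FCS, only 5 ng/ml M-CSF, and IFN-γ from day 6. The Mreg culture was also run without IFN-γ (Mreg_no IFN-γ), with LPS added to IFN-γ (Mreg_+LPS), and from adherent mononuclear cells of bone marrow, spleen and blood in place of sorted monocytes (Mreg_unpurified). Monocyte-derived dendritic cells (Mo-DC) had 20 ng/ml each of GM-CSF and IL-4 and then IFN-γ. The labels give LPS as 100 µg/ml in both cultures. Strain, sex and age of the mice are not given in the labels used here, and neither is whether separate mice or cultures supplied the arrays within a group. Every p therefore describes the scatter of these arrays, which may be technical. Array 1 of every group, series 1, was scanned on another day than series 2 and 3.

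Between 50.4 and 57.7% of spots on an array were well above background. Levels are log2 signals, after background subtraction, relative to the 75th percentile of all probes on that array, so 0 is the brightness of the probe at that percentile. A probe's level can be followed across groups, but levels of different probes are not comparable, and fewer cells of a type cannot be told apart from less RNA per cell. The labels held against marker genes with reservations. All 6 macrophage markers were above background on every array of the cultured groups, Mo-DC included, so their number did not set groups apart. The 3 Ly6C-high monocyte markers on the array summed to 383.4 to 512 times the 75th percentile in monocytes. They also reached 254.7 to 320 in M1, 243.1 to 293.2 in M2b and 218 to 249.7 in IFN-γ macrophages. Dendritic cell markers summed to 271 to 289.6 times the 75th percentile in Mo-DC, although Cd209a was above background on no array there. The next highest sum was 118.4 to 224.7 in M2a. The number above background on all arrays did not set Mo-DC apart: 5 of 6 there, in M2a and in IFN-γ macrophages, and 6 of 6 in monocytes. In uncultured monocytes, however, 7 of 7 neutrophil and granulocyte-precursor markers were above background on all arrays and summed to 1836 to 2519 times the 75th percentile, against at most 8.83 elsewhere. All 3 erythroid markers were present there too. So were 5 of 6 T and NK cell markers on all arrays (sum 0.85 to 1.73), and 4 of 5 B and plasma cell markers (4.72 to 5.29). Mast cell and basophil markers were above background there for 4 of 5 genes (12.5 to 17.7). In Mo-DC 3 of 6 T and NK cell markers were above background on all arrays.

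The annotated starts of the Serpina3 pair are shown first because the 2 genes were the basis of the choice and followed each other across groups. Their probes lay on chromosome 12 at chr12:104621804-104621863 (Serpina3f) and chr12:104642885-104642944 (Serpina3g) on the plus strand of build mm8, 21.022 kb apart. RefSeq windows from 250 bases before to 50 after the gene start (build GRCm38.p6, plus strand) were found for 5 of the 7 genes. They were searched on both strands for TTCNNNGAA, the gamma-activated site, for GAAANNGAA, a tandem half-site of interferon regulatory factors, and for the NF-κB consensus. Of 32544 such windows, 8.33% hold the first, 8.53% the second and 8.49% the third. Capitals mark the first 2 motifs in the windows of Serpina3f (chr12:104214294-104214593), Serpina3g (chr12:104235897-104236196) and Serpinb9 (chr13:33004291-33004590):
Serpina3f: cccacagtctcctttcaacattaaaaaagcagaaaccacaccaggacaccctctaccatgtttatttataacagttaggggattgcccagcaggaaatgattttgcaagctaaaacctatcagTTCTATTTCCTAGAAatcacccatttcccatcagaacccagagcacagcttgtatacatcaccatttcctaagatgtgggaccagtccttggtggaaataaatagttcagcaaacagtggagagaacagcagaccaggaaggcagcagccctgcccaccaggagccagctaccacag
Serpina3g: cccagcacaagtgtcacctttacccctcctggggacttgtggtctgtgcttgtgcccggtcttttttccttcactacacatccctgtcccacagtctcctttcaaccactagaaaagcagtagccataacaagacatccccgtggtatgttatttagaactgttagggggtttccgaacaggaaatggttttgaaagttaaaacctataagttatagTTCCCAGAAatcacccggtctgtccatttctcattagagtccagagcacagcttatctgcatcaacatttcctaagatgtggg
Serpinb9: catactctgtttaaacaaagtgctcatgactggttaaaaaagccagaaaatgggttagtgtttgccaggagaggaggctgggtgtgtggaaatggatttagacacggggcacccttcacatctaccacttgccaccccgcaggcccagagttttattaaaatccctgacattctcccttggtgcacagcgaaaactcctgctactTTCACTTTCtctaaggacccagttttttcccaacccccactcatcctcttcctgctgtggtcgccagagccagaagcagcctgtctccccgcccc

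Serpina3f held the gamma-activated site TTCCTAGAA from 121 to 113 bases before the gene start of the window shown, overlapping a match to the tandem half-site. From a second annotated start the same site lies 210 to 202 bases before it. In Serpina3g the gamma-activated site TTCCCAGAA lay 33 to 25 bases before the start. Without gaps, 119 of 212 aligned bases of the 2 windows were the same. Over the 15 capital letters of Serpina3f, counted from 1 at the 5′ end, the aligned Serpina3g bases differ by C3A, T6G and T11C, and the first 2 of these take the tandem half-site out of the Serpina3g window. Serpina3g alone held an NF-κB consensus match, 85 to 76 bases before the start. In Serpinb9 the tandem half-site lay 45 to 37 bases before the start, with no gamma-activated site. The Serpinb2 windows held 1 gamma-activated site, TTCCAAGAA, near the start, and the Serpinb6b window held none of the motifs. These are matches of letters in a window, not measured binding.

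**Figure D1:**
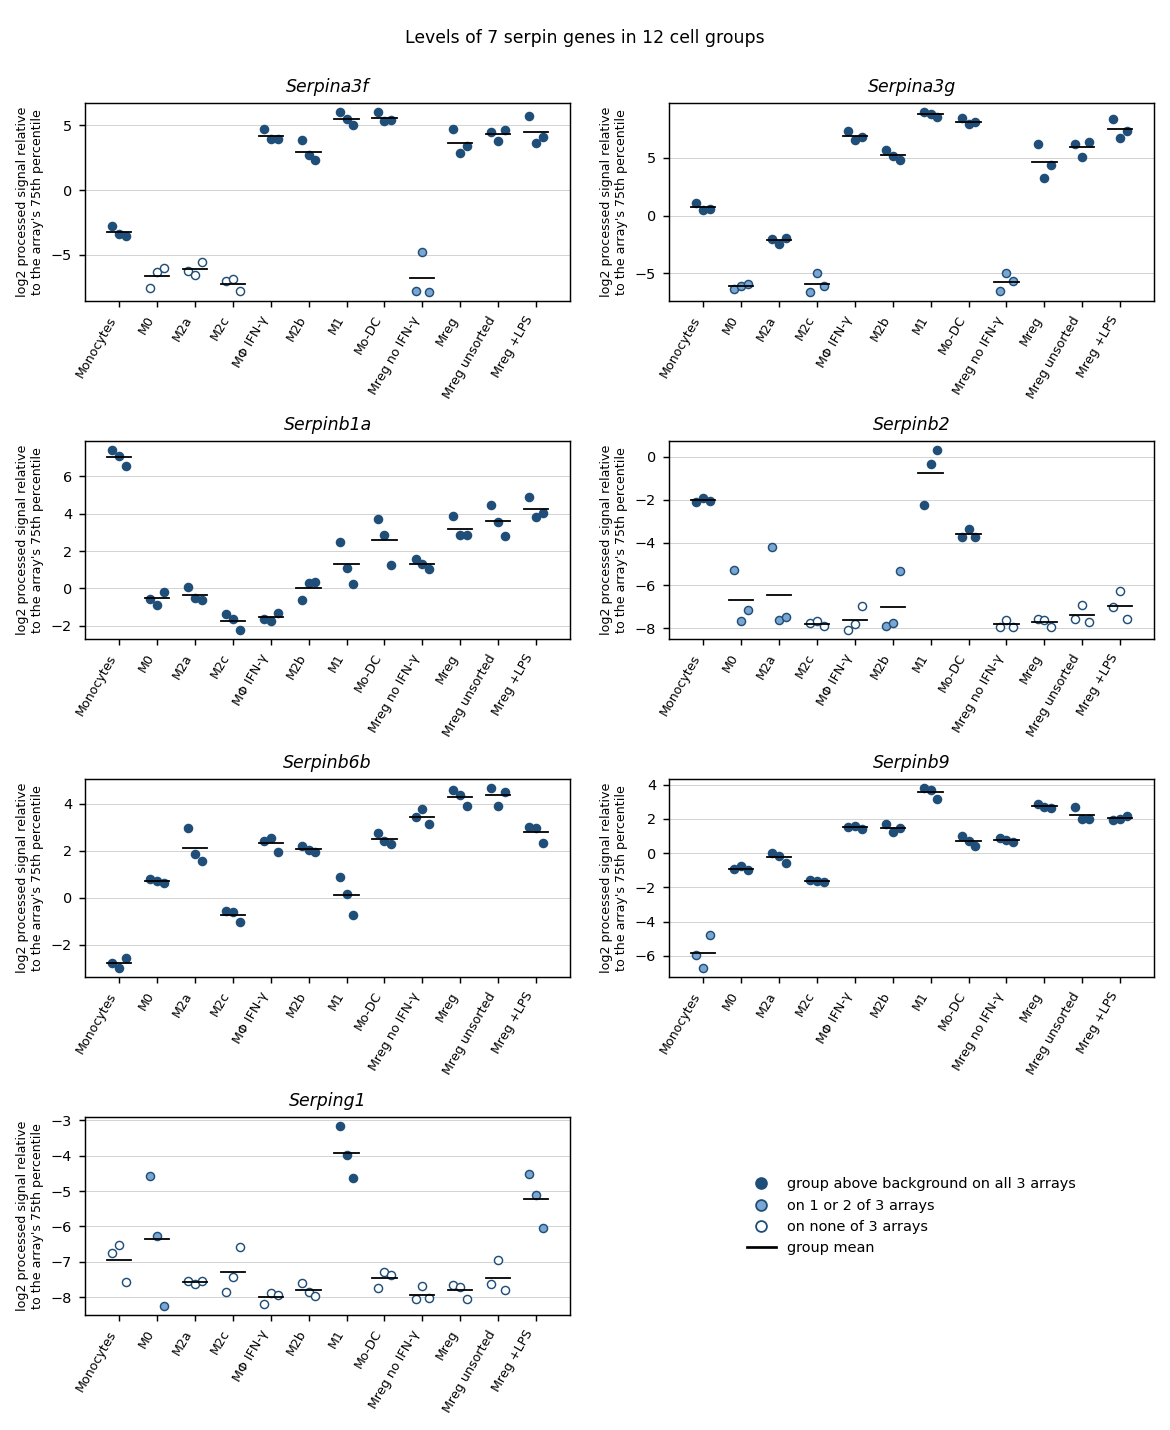
Levels of the 7 serpin genes on all 36 arrays, 1 panel per gene; the y axis is log2 processed signal relative to the 75th percentile of the array, points are series 1 to 3 from left to right and bars are group means. Serpina3f and Serpina3g are high in each group given IFN-γ, Serpinb1a is highest in monocytes at 7.02, and Serpinb2 and Serping1 are above background on all arrays in only 3 groups and 1 group.

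Serpina3g encodes an intracellular inhibitor that can neutralize lysosomal cathepsins released into the cytosol, and Serpina3f is its neighbour. In M0 cells Serpina3f read −7.57, −6.30 and −5.99 in series 1, 2 and 3, above background on no array. In IFN-γ macrophages it read 4.70, 3.92 and 3.97. The ranges are far apart, and the rise was at least 918-fold. In the Mreg culture it read −7.81, −4.75 and −7.90 without IFN-γ and 4.74, 2.87 and 3.43 with it, again with no overlap. That is 1448-fold between means, and 1 array without IFN-γ was above background.

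Serpina3g read −6.33, −6.07 and −5.87 in M0 cells and 7.28, 6.50 and 6.75 in IFN-γ macrophages. This is 7816-fold, with a single M0 array above background. In the Mreg culture it read −6.54, −4.99 and −5.62 without IFN-γ and 6.14, 3.27 and 4.36 with it, 1269-fold, and 2 arrays without IFN-γ were above background. The sizes rest on signal near background on the dim side: with normexp background correction the Serpina3f differences were log2 6.06 in Mreg and 6.46 in M-CSF macrophages, and those of Serpina3g 7.04 and 9.26. A second Serpina3f probe, 399 bases upstream, gave log2 11.05 and 11.27 in these contrasts.

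Across the 12 group means, Serpina3f and Serpina3g correlated at r = 0.981. These are points that share arrays and include the IFN-γ groups that chose the genes. For both genes the groups that had IFN-γ took the top 7 places, but not in the same order. Serpina3f was highest in Mo-DC (5.58 ± 0.39 SD, n = 3) and M1 (5.51 ± 0.47 SD, n = 3), whose arrays overlapped, and each of the top 7 groups overlapped its neighbour. Serpina3g was highest in M1 (8.75 ± 0.19 SD, n = 3), clear of Mo-DC (8.10 ± 0.27 SD, n = 3). The lowest of the 7 for Serpina3g was Mreg (4.59 ± 1.45 SD, n = 3), whose arrays did not overlap those of the next lower group, uncultured monocytes.

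Uncultured monocytes, which had no IFN-γ, still held both transcripts on all 3 arrays. Serpina3g read 1.07, 0.46 and 0.58 there and Serpina3f −2.78, −3.40 and −3.53. Genes whose 12 group means were most like those of Serpina3f were Cnn3, an actin-binding calponin (r = 0.987), the interferon-induced GTPase gene Gbp2 (r = 0.980) and Samhd1, which degrades deoxynucleotides (r = 0.976). For Serpina3g they were the costimulatory ligand gene Cd86 (r = 0.960), the MHC class II gene H2-Eb1 (r = 0.959) and Gbp3 (r = 0.955). They were picked from 6693 genes by that likeness.

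The other members did not share the size of this rise. Serpinb9, the inhibitor of granzyme B, read −0.95, −0.73 and −1.01 in M0 cells and 1.54, 1.56 and 1.43 with IFN-γ, 5.30-fold apart. In the Mreg culture it went from 0.88, 0.77 and 0.66 to 2.85, 2.70 and 2.63, or 3.89-fold. Serpinb6b, an intracellular clade B serpin, stood 3.06-fold higher with IFN-γ in M-CSF macrophages and 1.80-fold higher in Mreg, without overlap of the arrays in either.

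Serpinb1a, the inhibitor of neutrophil elastase, cathepsin G and proteinase 3, differed in opposite directions with IFN-γ. In M-CSF macrophages it read −0.56, −0.87 and −0.20 without and −1.62, −1.75 and −1.30 with IFN-γ, 2.02-fold lower. In the Mreg culture it read 1.58, 1.29 and 1.06 without and 3.86, 2.85 and 2.86 with IFN-γ, 3.67-fold higher. The arrays were apart in each culture, and the difference between the cultures was not tested because the genes were chosen on IFN-γ contrasts. Serpinb2 and Serping1 were above background on no array of the IFN-γ macrophages or Mreg, so no IFN-γ fold is given.

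LPS on top of IFN-γ was the first contrast that did not choose the genes, although its IFN-γ arrays also served in the choice. The arrays of M0, Mreg_no IFN-γ, IFN-γ macrophages and Mreg, used in the choice, also enter later contrasts. IFN-γ macrophages lay on other slides than M1 and M0, so slide cannot be told apart from LPS or IFN-γ there. Mreg, Mreg_+LPS and Mreg_no IFN-γ shared slides. The difference of the LPS responses thus sets a between-slide contrast against a within-slide contrast. In M-CSF macrophages (M1 against IFN-γ macrophages) 5 of the 7 genes were called higher and Serpinb6b lower. The 5 include Serping1, which passed the filter on dim probes only through M1, so its call is no support. Across the array 51.2% of genes were called in this contrast in either direction (limma, adjusted p below 0.05), and the median log2 difference was 2.04 over the 7 genes and 0.12 over all genes tested. In Mreg (Mreg_+LPS against Mreg) Serpina3g and Serping1 rose, and Serpinb6b and Serpinb9 fell. These 4 of 7 compare with 57.4% of all genes called, so the share is that of the background. The medians there were 0.80 and 0.17.

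Serpinb2, also called PAI-2, inhibits the plasminogen activator urokinase and is a classical LPS-induced gene of macrophages. Its probe was above background on 12 of 36 arrays and so passed the filter only through the groups where it is high. Calls of Serpinb2 that rest on those groups are thus no independent support. Serpinb2 read −2.23, −0.31 and 0.32 in M1, and was above background on no array of the IFN-γ macrophages (−8.10, −7.78 and −6.95). The rise was at least 31.1-fold (log2 6.87 ± 0.72 SE, limma adjusted p = 1.0e-08), and log2 2.69 with normexp. In Mreg_+LPS it stayed below background on all arrays, at −7.00, −6.29 and −7.59. The difference of the LPS responses was log2 −6.12 ± 1.02 SE (limma adjusted p = 3.5e-05), −2.09 with normexp, with 1 of the 4 groups above background on all arrays. A second probe that overlaps the first gave log2 6.89 in M-CSF macrophages and 0.56 in Mreg.

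Its target gene Plau, encoding urokinase, fell in the same comparison of M-CSF macrophages (4.92-fold, limma adjusted p = 1.6e-07). Plau read 1.53 ± 0.25 SD in IFN-γ macrophages and −0.77 ± 0.37 SD in M1 (n = 3 each). It was lower with LPS in Mreg too, where Serpinb2 stayed below background, at 2.01 ± 0.15 SD without and 0.78 ± 0.25 SD with LPS (n = 3 each). The LPS response of Plaur, the urokinase receptor gene, differed between cultures by log2 −2.01 ± 0.39 SE (limma adjusted p = 2.1e-04). The gene with group means most like those of Serpinb2 was Il6, the proinflammatory cytokine (r = 0.949), which was below background in 6 of the 12 groups.

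**Figure D2:**
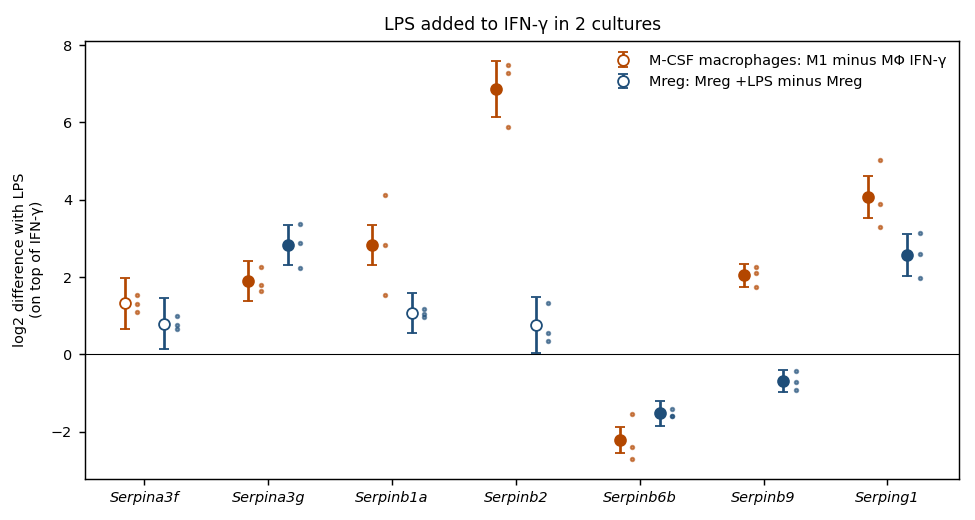
Log2 difference with LPS added to IFN-γ for each serpin gene, in M-CSF macrophages (orange, M1 minus IFN-γ macrophages) and in Mreg (blue, Mreg_+LPS minus Mreg); large points are fitted differences with their standard errors, filled where called, and small points are the 3 series. Serpinb2 differs by 6.87 in M-CSF macrophages and 0.75 in Mreg, where it is below background, and Serpinb9 lies above 0 in the first and below 0 in the second.

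Serpinb9 answered LPS in opposite directions. In M-CSF macrophages it went from 1.54, 1.56 and 1.43 to 3.80, 3.68 and 3.18, a 4.12-fold rise (log2 2.04 ± 0.29 SE, limma adjusted p = 1.1e-06). In Mreg it went from 2.85, 2.70 and 2.63 to 1.94, 2.00 and 2.20. This 1.60-fold fall passed only narrowly (log2 −0.68 ± 0.29 SE, limma adjusted p = 0.044) and was not called when any 1 of the 6 arrays was left out (adjusted p = 0.051 to 0.11). The difference of the responses was log2 −2.72 ± 0.40 SE (limma adjusted p = 7.7e-06). In this contrast 34.9% of all genes were called, and 2 of the 7 serpins.

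The 2 probes of Serpinb9 differed in size but not in direction. The one used lay at chr13:33023525-33023584 of build mm8, and the other 1442 bases further 3′, at chr13:33024967-33025026. The distal probe went from 2.26, 1.44 and 1.71 in Mreg to −0.80, −1.28 and −1.23 in Mreg_+LPS, a log2 difference of −2.91 against −0.68 with the first. In M-CSF macrophages it gave 0.91 against 2.04. The distal minus the first probe was −3.15 ± 0.35 SD in Mreg_+LPS and between −1.31 and −0.13 in the other cultured groups (n = 3 each). Which transcript form each probe reports was not tested.

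**Figure D3:**
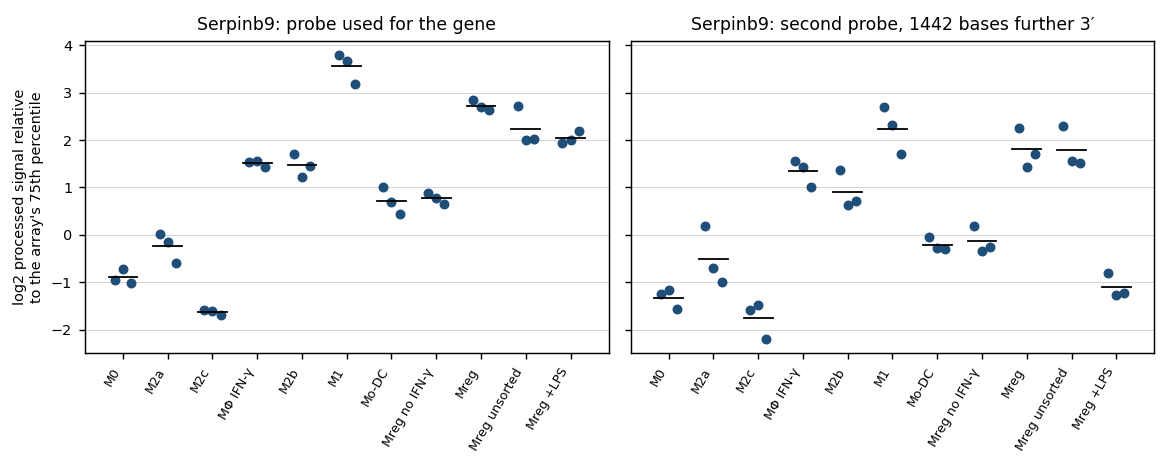
Serpinb9 levels in the 11 cultured groups by 2 probes, with points for series 1 to 3 and bars for group means; the y axis is log2 processed signal relative to the 75th percentile of the array. The probe used reads 2.05 in Mreg_+LPS, and the distal probe reads −1.10 there, lower than in Mreg on every array.

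Granzyme B itself, the protease that Serpinb9 blocks, was above background on all arrays of only monocytes and Mo-DC. It read 0.24 ± 0.73 SD and −1.07 ± 1.499 SD there (n = 3 each). T and NK cell markers were above background on all arrays for 5 of 6 genes in monocytes and 3 of 6 in Mo-DC. Which cells hold the transcript was not tested. The genes most like Serpinb9 across group means were Tnfaip1 (r = 0.962), the stem cell factor gene Kitl (r = 0.961) and the stress kinase gene Mapk9 (r = 0.959).

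Serpina3g rose with LPS beyond its IFN-γ level in both cultures. In Mreg it went from 6.14, 3.27 and 4.36 to 8.37, 6.65 and 7.26, 7.12-fold (log2 2.83 ± 0.53 SE, limma adjusted p = 4.5e-05). In M-CSF macrophages it went to 8.92, 8.78 and 8.54, 3.74-fold (log2 1.90 ± 0.53 SE, limma adjusted p = 0.0035). The difference of the responses did not pass (log2 0.93 ± 0.74 SE, limma adjusted p = 0.37), but had an adjusted p = 0.048 without Mreg array 1.

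Serpina3f was not called in either culture, with log2 0.80 ± 0.65 SE in Mreg (limma adjusted p = 0.31) and 1.32 ± 0.65 SE in M-CSF macrophages (limma adjusted p = 0.094). Its second probe gave log2 1.42 in the latter, with an adjusted p = 0.010. Ctsb, encoding cathepsin B, one of the lysosomal proteases, was above background on every array and read 8.93 ± 0.20 SD in Mreg and 9.55 ± 0.09 SD in Mreg_+LPS (n = 3 each).

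Serpinb6b fell with LPS in both. It went from 2.43, 2.54 and 1.97 in IFN-γ macrophages to 0.89, 0.15 and −0.73 in M1, 4.62-fold (log2 −2.21 ± 0.33 SE, limma adjusted p = 2.6e-06). In Mreg it went from 4.60, 4.40 and 3.92 to 3.02, 2.99 and 2.34, 2.88-fold (log2 −1.52 ± 0.33 SE, limma adjusted p = 2.6e-04). The difference of these falls did not pass (log2 0.68 ± 0.46 SE, limma adjusted p = 0.28).

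Serpinb1a rose with LPS in M-CSF macrophages, from −1.62, −1.75 and −1.30 to 2.50, 1.09 and 0.25 (7.13-fold, log2 2.83 ± 0.52 SE, limma adjusted p = 5.0e-05). In Mreg it read 4.91, 3.82 and 4.04 with LPS, and the log2 difference of 1.07 ± 0.52 SE was not called (limma adjusted p = 0.081). With the series number as a block, which pairs these arrays, the adjusted p was 0.034 in Mreg and 0.023 for the difference of the responses (log2 −1.77 ± 0.74 SE, adjusted p = 0.064 without the block). That difference was also called with quantile normalization and with the authors' series table (limma adjusted p = 0.020 for each). The slide as a random block called it too (adjusted p = 0.044), and also the Mreg rise (adjusted p = 0.043). Leaving out M1 array 3 or Mreg_+LPS array 1 gave the difference a call as well (adjusted p = 0.018 and 0.040). The Mreg rise was called without Mreg array 1 (adjusted p = 0.042).

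Serping1, the C1 inhibitor that holds the complement proteases C1r and C1s, was near background in nearly all groups and passed the filter on dim probes only through 5 of 36 arrays. M1 was the sole group above background on all arrays, at −3.17, −3.99 and −4.62. It was tested at all only because of these 3 arrays, so its contrasts with M1 are given as descriptions. It was at least 3.41-fold higher in M1 than in IFN-γ macrophages, and log2 0.90 higher with normexp. In Mreg it was at least 1.25-fold higher with LPS (log2 2.57 ± 0.54 SE, limma adjusted p = 2.1e-04), with 1 of 3 Mreg_+LPS arrays above background, and log2 0.83 with normexp. C1s1, a protease gene it controls, read −5.09 ± 0.26 SD in IFN-γ macrophages and −3.40 ± 0.61 SD in M1 (n = 3 each). In Mreg it read −3.43 ± 0.49 SD without and −3.38 ± 0.64 SD with LPS (n = 3 each), and its LPS responses differed by log2 −1.63 ± 0.48 SE (limma adjusted p = 0.0097).

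The Mreg culture was set against M-CSF macrophages under each of 3 matched stimuli. In each, the groups compared lay on different slides, and the cultures differ in M-CSF dose and in human serum, which cannot be told apart. Without stimulus, Serpinb1a, Serpinb6b and Serpinb9 were higher in the Mreg culture and Serping1 was lower, 4 of 7 where 30.9% of all genes were called. With IFN-γ the same 3 genes were higher in Mreg and Serpina3g was lower, again 4 of 7, against 28.0% of all genes. With IFN-γ and LPS, Serpinb1a and Serpinb6b were higher and Serpina3g, Serpinb2, Serpinb9 and Serping1 lower, 6 of 7 where 54.4% of all genes were called. Here too the count includes Serping1, kept in the test only by M1. The median log2 difference over the 7 genes was 0.37, 0.20 and −1.30 under these stimuli in turn, against 0.06, 0.00 and 0.05 over all genes tested.

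Serpinb1a was higher by 3.61-fold without stimulus (log2 1.85 ± 0.52 SE, limma adjusted p = 0.0073), by 26.8-fold with IFN-γ (log2 4.74 ± 0.52 SE, limma adjusted p = 1.3e-07) and by 7.87-fold with IFN-γ and LPS (log2 2.98 ± 0.52 SE, limma adjusted p = 2.1e-05). In each case every Mreg-culture array lay above every array of its counterpart. The neutrophil and granulocyte-precursor markers summed to between 0.118 and 0.153 in Mreg and 0.536 and 1.43 in IFN-γ macrophages. Elane was above background on no array of either. The part of such cells in the Serpinb1a difference was not tested. The Serpinb1a probe, on chromosome 13 at chr13:32850318-32850377 (minus strand, mm8), reads:
Serpinb1a: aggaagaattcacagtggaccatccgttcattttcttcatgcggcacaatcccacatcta

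It is shown because the paralogs Serpinb1b and Serpinb1c were 2 of the 3 genes most like Serpinb1a across group means (r = 0.973 and 0.991). They were higher in Mreg than in IFN-γ macrophages too, by 5.58-fold and 9.58-fold (limma adjusted p = 7.2e-07 for each). Among 78 serpin probes on the array, the closest match to the Serpinb1a probe had 28 of 58 bases in common. Paralogous transcripts outside the probes were not compared, so shared hybridization was not tested.

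**Figure D4:**
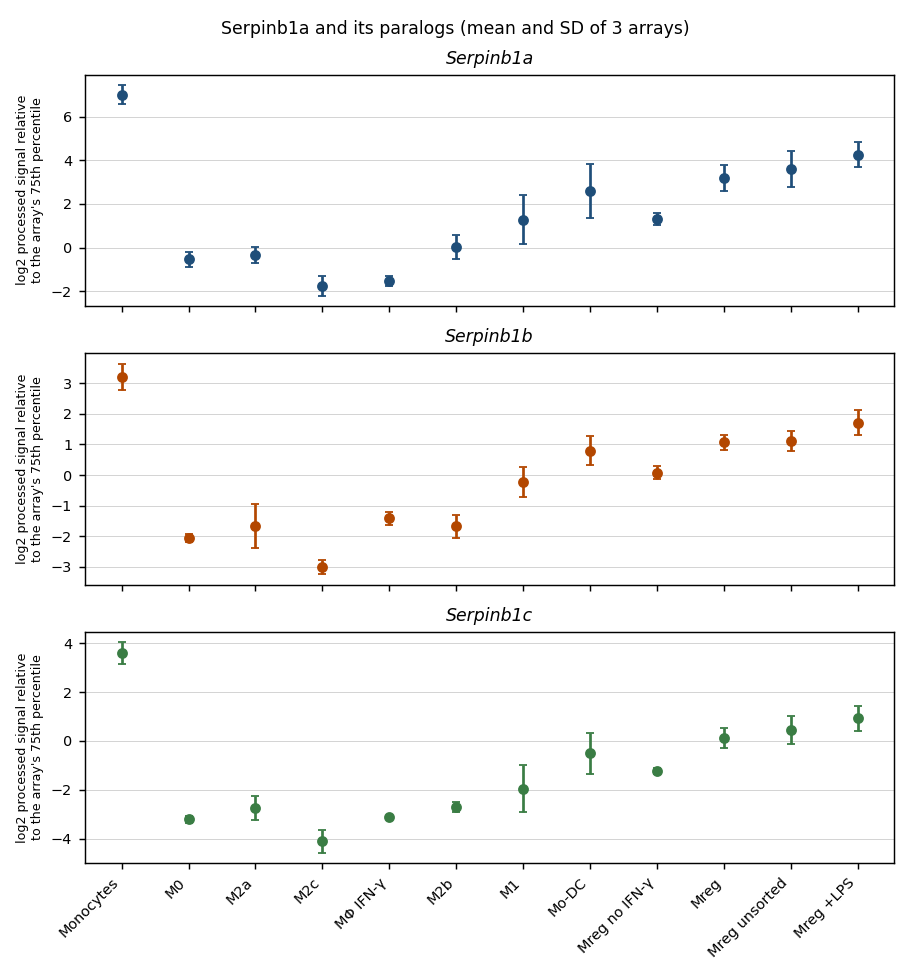
Mean level and SD over 3 arrays of Serpinb1a, Serpinb1b and Serpinb1c in 12 groups, with a y axis of log2 processed signal relative to the 75th percentile of the array for each gene. All 3 are highest in monocytes and lowest in M2c, and each is higher in Mreg (3.19, 1.07 and 0.13) than in IFN-γ macrophages (−1.56, −1.41 and −3.13).

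Serpinb6b was highest of all groups in Mreg_unpurified (4.37 ± 0.39 SD, n = 3) and Mreg (4.31 ± 0.35 SD, n = 3), which overlapped each other and no other group. It was higher in the Mreg culture by 6.76-fold without stimulus (log2 2.76 ± 0.33 SE, limma adjusted p = 3.7e-07). With IFN-γ the factor was 3.98 (log2 1.99 ± 0.33 SE, limma adjusted p = 3.7e-05), and with IFN-γ and LPS 6.40 (log2 2.68 ± 0.33 SE, limma adjusted p = 9.0e-08). The paralogs Serpinb6a, Serpinb6c and Serpinb6d, named after their values were seen, were also called higher in all 3 comparisons, by 1.53-fold to 2.50-fold. Shared hybridization was not tested for these probes either. Likeness of group means put Alkbh2, a DNA repair dioxygenase gene, first for Serpinb6b (r = 0.914).

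Serpinb9 stood 3.17-fold higher in the Mreg culture without stimulus (log2 1.67 ± 0.29 SE, limma adjusted p = 5.6e-05) and 2.33-fold higher with IFN-γ (log2 1.22 ± 0.29 SE, limma adjusted p = 0.0019). With IFN-γ and LPS it was 2.84-fold lower (log2 −1.51 ± 0.29 SE, limma adjusted p = 6.2e-05). The distal probe did not pass with IFN-γ (log2 0.47, adjusted p = 0.31) and gave log2 −3.35 with IFN-γ and LPS.

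**Figure D5:**
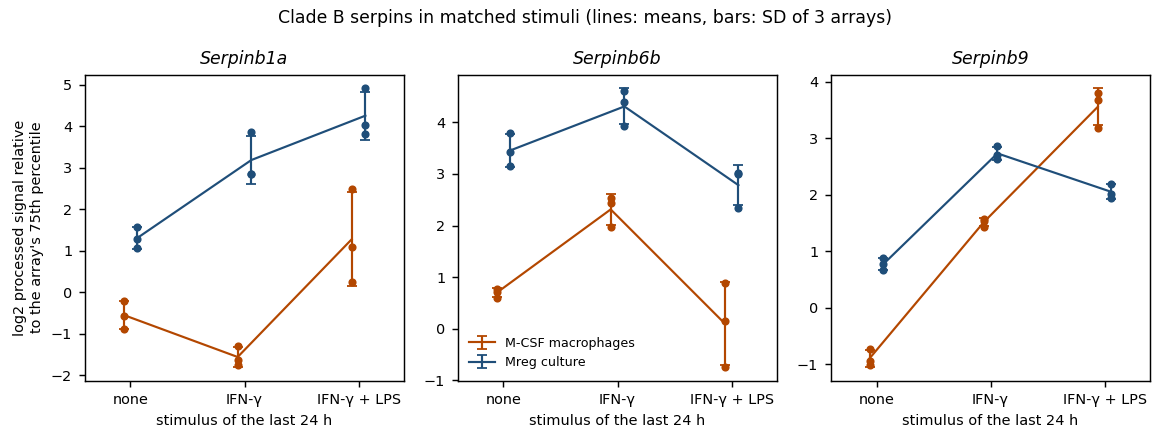
Levels of Serpinb1a, Serpinb6b and Serpinb9 with no stimulus, IFN-γ, or IFN-γ with LPS, in M-CSF macrophages (orange) and in the Mreg culture (blue); the y axis is log2 processed signal relative to the 75th percentile of the array, points are arrays, lines join means and bars are SDs. Serpinb1a and Serpinb6b are higher in the Mreg culture under all 3 stimuli, and Serpinb9 is higher under the first 2 and lower under the last.

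Serpina3g was 4.76-fold lower in Mreg than in IFN-γ macrophages (log2 −2.25 ± 0.53 SE, limma adjusted p = 0.0018), with an adjusted p = 0.074 when only these groups were fitted. With LPS it was 2.50-fold lower (log2 −1.32 ± 0.53 SE, limma adjusted p = 0.035), a call lost without M1 array 1 or 2 or Mreg_+LPS array 2 or 3 (adjusted p = 0.072 to 0.18). Serpina3f was not called under IFN-γ (log2 −0.52 ± 0.65 SE, limma adjusted p = 0.62) or IFN-γ with LPS (log2 −1.04 ± 0.65 SE, limma adjusted p = 0.19). The latter had an adjusted p = 0.047 without Mreg_+LPS array 1, and its second probe an adjusted p = 0.033.

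Serpinb2 was at least 19.7-fold lower in Mreg_+LPS than in M1 (log2 −6.22 ± 0.72 SE, limma adjusted p = 4.0e-08), and log2 −2.06 with normexp. The Serping1 calls were fragile. Without stimulus only M0 array 1, at −4.57, was above background, and the difference (log2 −1.56 ± 0.54 SE, limma adjusted p = 0.029) had an adjusted p = 0.34 without that array. It was also lost without M0 array 2 and without array 1 or 3 of Mreg_no IFN-γ (adjusted p = 0.071 to 0.077). With IFN-γ and LPS its arrays in Mreg_+LPS and M1 overlapped, and the difference of log2 −1.30, a description for the reason given above, was log2 0.0075 with normexp.

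IL-4, which drives alternative activation, raised Serpina3g and Serpinb6b in M-CSF macrophages (M2a against M0), 2 of 7 where 12.5% of all genes were called. Serpina3g read −2.03, −2.46 and −1.90 with IL-4, above background on all arrays. It was 15.5-fold higher (log2 3.96 ± 0.53 SE, limma adjusted p = 8.2e-06), with 1 of the 3 M0 arrays above background. These M0 arrays were the low side of an IFN-γ rise that chose Serpina3g, so this call is no independent support. With normexp this was log2 0.92 (adjusted p = 0.26). Serpina3f was below background in both groups.

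Serpinb6b read 2.98, 1.87 and 1.56 with IL-4 against 0.78, 0.71 and 0.61 without, 2.71-fold (log2 1.44 ± 0.33 SE, limma adjusted p = 0.0033). The call was lost without M2a array 1, the highest (adjusted p = 0.054), and with only these groups in the fit (adjusted p = 0.074). Serping1, below background on all M2a arrays, was called lower without M0 array 3 (adjusted p = 0.0027, against 0.16).

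With dexamethasone (M2c against M0) the groups lay on different slides, so drug and slide cannot be told apart. Serpinb6b went from 0.78, 0.71 and 0.61 in M0 to −0.55, −0.60 and −1.06 in M2c. This was 2.70-fold (log2 −1.43 ± 0.33 SE, limma adjusted p = 0.0022), and it was the 1 serpin of 7 called where 20.6% of all genes were. Its paralogs went the other way: Serpinb6a, Serpinb6c and Serpinb6d, named after their values were seen, were called higher with dexamethasone, by 1.57-fold to 1.61-fold (limma adjusted p = 0.0010 to 0.0030). Shared hybridization among the probes of these paralogs was not tested, so they may not be separate results.

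Serpinb1a read 2.33-fold lower (log2 −1.22 ± 0.52 SE, limma adjusted p = 0.10), and with the series number as a block it was called (adjusted p = 0.039). Serpinb9 read 1.66-fold lower (log2 −0.74 ± 0.29 SE, limma adjusted p = 0.071), called with normexp (adjusted p = 0.011) and with only these groups in the fit (adjusted p = 0.0056). Serping1 was called lower without M0 array 3 (adjusted p = 0.0053, against 0.27). Serpine2, which encodes the thrombin inhibitor protease nexin 1, was at least 6.76-fold higher with dexamethasone.

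An immunoglobulin coating under IFN-γ (M2b against IFN-γ macrophages) gave no call among the 7 genes (limma), 2 of which had an unadjusted p below 0.05, where 3.94% of all genes were called. Serpina3g read 5.69, 5.14 and 4.76 on the coating, below all arrays of IFN-γ macrophages (log2 −1.65 ± 0.53 SE, limma adjusted p = 0.080). Serpinb1a read −0.60, 0.30 and 0.36, above all of them (log2 1.57 ± 0.52 SE, limma adjusted p = 0.095). With the series number as a block, Serpinb1a was called (adjusted p = 0.029), and with the slide as a random block both were (adjusted p = 0.032 for Serpinb1a and 0.038 for Serpina3g).

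Starting the Mreg culture from unsorted adherent cells (Mreg_unpurified against Mreg) also gave no call among the 7 (limma), 1 of which had an unadjusted p below 0.05, where 12% of all genes were called. Serpina3g read 6.20, 5.09 and 6.33 against 6.14, 3.27 and 4.36 (log2 1.28 ± 0.53 SE, limma adjusted p = 0.11), with overlapping arrays. Without Mreg array 1 it was called (log2 2.05, adjusted p = 0.0095). Serpinb6b differed by log2 0.06 ± 0.33 SE and Serpinb9 by log2 −0.49 ± 0.29 SE (limma adjusted p = 0.93 and 0.28).

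Mo-DC were compared with IFN-γ macrophages, both given IFN-γ but grown in GM-CSF with IL-4 or in M-CSF. Serpinb1a and Serpinb2 were higher and Serpinb9 lower in Mo-DC, 3 of 7 where 47.5% of all genes were called. Serpinb1a read 3.71, 2.84 and 1.27, or 17.9-fold higher (log2 4.16 ± 0.52 SE, limma adjusted p = 2.3e-07). Serpinb2 read −3.74, −3.37 and −3.75, at least 4.22-fold higher (log2 3.99 ± 0.72 SE, limma adjusted p = 5.2e-05), and log2 0.97 with normexp (adjusted p = 0.068).

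Serpinb9 was 1.74-fold lower in Mo-DC (log2 −0.80 ± 0.29 SE, limma adjusted p = 0.023). The call was lost without Mo-DC array 2 or 3 or IFN-γ macrophage array 1 or 2 (adjusted p = 0.053 to 0.098). Serpina3g read 8.40, 7.86 and 8.04, above all IFN-γ macrophage arrays, and just missed the threshold (log2 1.26 ± 0.53 SE, limma adjusted p = 0.051). It passed without IFN-γ macrophage array 1 (adjusted p = 0.047) and with only these groups in the fit (adjusted p = 0.0077). Among other serpins, Serpina5, the protein C inhibitor gene, was at least 36.6-fold higher in Mo-DC and below background in IFN-γ macrophages.

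M0 macrophages were last compared with the uncultured monocytes they came from. Serpinb6b and Serpinb9 were higher in M0, and Serpina3f, Serpina3g, Serpinb1a and Serpinb2 lower, 6 of 7 where 63.4% of all genes were called. Serpinb1a read 7.41, 7.11 and 6.54 in monocytes, clear of every other group, and 188.7-fold less in M0 (log2 −7.56 ± 0.52 SE, limma adjusted p = 8.6e-13). Elane and Prtn3, the genes of 2 proteases it inhibits, were at least 1762-fold lower and 336.6-fold lower in M0. Both are on the list of neutrophil and granulocyte-precursor markers, whose sum was 1836 to 2519 times the 75th percentile in monocytes and 0.995 to 3.05 in M0, and the part of such cells in this difference and in the others of this comparison was not tested.

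Serpina3g was 110.8-fold lower in M0 (log2 −6.79 ± 0.53 SE, limma adjusted p = 9.7e-12), with 1 of the 3 M0 arrays above background, and log2 −3.20 with normexp. Serpina3f was at least 5.32-fold lower (log2 −3.38 ± 0.65 SE, limma adjusted p = 5.5e-05) but log2 −0.29 with normexp (adjusted p = 0.66). Low M0 values served in the choice of Serpina3f and Serpina3g, so these calls are no independent support. Serpinb2 read −2.12, −1.91 and −2.07 in monocytes and was 25.3-fold lower in M0 (log2 −4.66 ± 0.72 SE, limma adjusted p = 2.9e-06), with 1 of the 3 M0 arrays above background, and log2 −0.96 under normexp (adjusted p = 0.056).

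Serpinb9 was 29.98-fold higher in M0 than in monocytes (log2 4.91 ± 0.29 SE, limma adjusted p = 2.9e-14), with 1 of the 3 monocyte arrays above background, and log2 2.11 with normexp. Serpinb6b read −2.77, −3.01 and −2.58 in monocytes and was 11.2-fold higher in M0 (log2 3.49 ± 0.33 SE, limma adjusted p = 4.6e-10). Serping1 was not called (log2 0.58 ± 0.54 SE, limma adjusted p = 0.36) but had an adjusted p = 0.0051 without M0 array 3.

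The array held 51 other serpin genes, of which 27 passed the filter on dim probes, some through a single group. With LPS 8 of the 27 rose and 3 fell in M-CSF macrophages, and 7 rose and 3 fell in Mreg, where 51.2% and 57.4% of all genes were called. Their median log2 difference was 0.26 and 0.48, against 0.12 and 0.17 over all genes tested. Serpinb8, an intracellular inhibitor of furin-like proteases, rose in both, by 5.24-fold and 5.66-fold.

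In Mreg against IFN-γ macrophages 9 of the 27 were higher and none lower, with a median log2 difference of 0.25, where 28.0% of all genes were called. Of 24 protease and protease-receptor genes listed as serpin targets or their partners, 21 were tested. In that comparison 5 were higher and 5 lower, against the same 28.0% of all genes, with a median log2 difference of 0.15 against 0.00 over all genes tested. Among them were Ctsk, a collagen-cutting cathepsin (4.48-fold higher), and Ctsg (10.47-fold lower).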

How the data were processed

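RNA of 36 samples in 12 groups was measured on 36 single-colour Agilent arrays, 4 to a slide on 9 slides and scanned on 2 days. Each slide held arrays of a single series. Series 1 was scanned on day 2, and series 2 and 3 on day 1. The single scan day used as an alternative is day 1, so it leaves out series 1. Per the file headers, Agilent Feature Extraction 10.5.1.1 made the deposited processed signal, a background-subtracted linear intensity per spot, and the deposited flags for spots well above background and for outliers. The deposited series table by the authors holds log2 values and correlated with the processed intensities at r of at least 0.997 on each array. It served as an alternative only.

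Outlier spots were left out, repeated spots averaged, and the 75th percentile of each array subtracted from log2 intensity. Of 41174 probes, 26478 passed the filter of 3 or more arrays well above background, and the brightest probe stood for each of 17607 genes. Probes took current names by accession (24375), by symbol (8727) or kept the name in the file (8072). One mean per group was fitted to all arrays with limma 3.58.1 (R 4.3.3), and p-values were adjusted by Benjamini-Hochberg over all genes of a comparison, with calls at 0.05. The fit was tested on simulated data. "At least" folds compare the bright mean with dim arrays set no lower than the dimmest spot that was called above background on that array, and the p beside them tests the values as measured. The 7 genes and the gene lists were chosen with earlier results of these data known. Named were the 7 genes, up to 3 other serpins and 3 proteases of largest change per comparison, and the 3 genes most like each member by Pearson correlation of 12 group means. One gene that this rule names is not reported here. Paralogs and the levels of protease targets were named after their values were seen.

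Same-numbered arrays deviated together in both IFN-γ, both LPS, the IL-4, dexamethasone and coating comparisons. The lowest correlation of deviations was 0.11, so the numbers were taken to pair them. Pairing of cells cannot be told apart from shared scan day or slide handling. The main fit and its p-values leave this pairing out, and the replicate block, an alternative, holds it. In the tested ones and the difference of LPS responses, the block changed only calls of Serpinb1a, given above. In the other comparisons the lowest was 0.016 to 0.095 and they were not. Alternatives were normexp background correction (offset 50), quantile normalization, the authors' table, other filters on dim probes, replicate and slide blocks, fits of only the compared groups, single arrays left out and, chosen after seeing the data, 1 scan day and the other probe.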

Additional observations from a re-analysis of the deposited data

Results flagged for a closer look

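The LPS response differed between the Mreg culture and M-CSF macrophages, by a test of the difference itself, for Serpinb2 (log2 −6.12, limma adjusted p = 3.5e-05) and Serpinb9 (log2 −2.72, limma adjusted p = 7.7e-06). Serpinb9 moved in opposite directions in the 2 cultures. Of the 4 groups behind the Serpinb2 value, only M1 was above background, and with normexp the value was log2 −2.09. The Serpinb2 probe passed the filter on dim probes only through groups where it is high, M1 among them. That call is thus no independent support. M1 and IFN-γ macrophages lay on different slides, and Mreg and Mreg_+LPS on the same ones.

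The IFN-γ difference of Serpinb1a was negative on all 3 arrays in M-CSF macrophages and positive on all 3 in the Mreg culture, a gap of log2 2.89 between cultures. That gap was not tested, because IFN-γ contrasts chose the genes. M0 and IFN-γ macrophages also lay on different slides.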

How the results depend on the processing

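Of 38 member differences called, 26 kept their direction and call under all alternatives run. Over 625 alternative values of these, 582 kept the call, 42 lost it and 1 reversed, that of Serping1 between Mreg_+LPS and M1 (log2 0.0075 with normexp). Of 46 differences not called, 16 were called by some alternative. The number of the 7 genes called moved by over 1.5 times as follows. For the difference of LPS responses it was 1 when probes had to be above background on 18 arrays, a filter that kept 5 of the 7 genes. Serpinb2 and Serping1, above background on 12 and 5 of 36 arrays, were not in that fit. Their calls were therefore not put to this filter. Of all genes, 6128 of 14696 were called there. With IL-4 it was 1 with normexp, with only the compared groups and on a single scan day. Of 17606 genes, 2057 were called there with normexp and 1465 with only the compared groups. With dexamethasone it was 2 with normexp and on a single scan day, and 3 with only the compared groups. The calls over all genes were 2796 with normexp and 4344 with only the compared groups, of 17606. On the coating it was 2 with the slide as a random block and 1 on a single scan day. The slide block called 1297 of 17605 genes there. For unsorted starting cells it was 1 on a single scan day, and for Mo-DC 6 with only the compared groups. That Mo-DC fit called 8642 of 17605 genes. With single arrays left out, the counts ran from 1 to 3 with IL-4, 1 to 2 with dexamethasone, 0 to 1 for unsorted cells and 4 to 7 for the cultures under IFN-γ and LPS. Shares of all genes are not given for the single scan day and the left-out arrays, so those counts are not read against them. Signals near background limit the sizes given for Serpina3f, Serpina3g, Serpinb2 and Serping1.

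With the replicate block, which pairs arrays of the same number, 2 genes were called with dexamethasone, 1 on the coating, 5 with LPS in Mreg and 3 for the difference of LPS responses. In comparisons whose numbers do not pair the arrays, the block gave 4 calls for Mo-DC and 0 for unsorted cells. Of all genes it called 9244 of 17605 and 3383 of 17606 there.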
